A study of Mus musculus with 18 samples.

Results

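Clonidine, an agonist of alpha2-adrenergic receptors, was given to mice that carried MC38-OVA tumours and that either had or lacked Adra2a, the gene of the alpha2A receptor. The quantity described here is the effect of clonidine on each gene in wild-type (WT) hosts minus its effect in Adra2a-/- (KO) hosts. On the log2 scale this is (WT-Clonidine minus WT-Control) minus (KO-Clonidine minus KO-Control). It was taken for all expressed genes, 16125 of the 21015 in the table, from 12 of the 18 libraries. A positive difference means that the gene stood higher with clonidine, relative to control, in WT hosts than in KO hosts. The comparison asks how far the response of the tumour tissue to the drug depends on the receptor of the host.

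MC38-OVA cells derive from a mouse colon carcinoma and carry ovalbumin as a model antigen. The labels give hosts of 10 weeks, daily intraperitoneal injection, and collection of tumours 7 days after treatment, without doses. The groups of the difference are WT-Clonidine, WT-Control, KO-Clonidine and KO-Control, with 3 libraries each. The protocol names PBS for control mice, whereas the treatment entry of both control groups reads untreated. The other 6 libraries are WT-Guanabenz and KO-Guanabenz, guanabenz being another alpha2 agonist. They enter only the choice of expressed genes, the scaling of the libraries and the estimate of the spread between libraries. The treatment entry of those titled KO-Guanabenz reads untreated, in conflict with the title. The KO hosts are described as Adra2a-/- with no detail of the allele, and the tumour cells carry their own genome, so a tumour in a KO host can still hold the gene. Nothing in the labels says that the libraries came from separate animals, so the p-values rest on how far these libraries spread, part of which may be technical.

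Alpha2-adrenergic receptors couple to inhibitory G proteins and lower cyclic AMP in the cell. In the nervous system they act as autoreceptors that reduce the release of noradrenaline, which is the basis of the blood pressure lowering action of clonidine, and the alpha2A subtype is the main one in that role. The receptors are also found on immune cells, among them macrophages and lymphocytes, and clonidine binds imidazoline sites as well. An effect that needs the host receptor would be present in WT hosts and absent in KO hosts, whereas an effect through another target would be shared by both.

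In units of 1000000, total counts were 84.3 to 275.1 in WT-Clonidine and 96.5 to 491.1 in WT-Control. They were 62.2 to 147.6 in KO-Clonidine and 66.6 to 109.8 in KO-Control. Levels are given as counts per 1000000 counts (CPM). Transcripts of 3 Y-linked genes averaged above 1 CPM in 2 WT-Clonidine libraries, 3 WT-Control libraries, no KO-Clonidine library and 2 KO-Control libraries. No KO-Clonidine library has them and no WT-Control library lacks them, so the difference could not be taken within either kind of library. A fit with a term for them is given where it changes a call. Adra2a (chromosome 19, 54045259 to 54048982, GRCm38) was at 0.435, 0.484 and 0.32 CPM in WT-Clonidine, against 0.589, 0.401 and 0.286 CPM in WT-Control. It was at 0.183, 0.293 and 0.234 CPM in KO-Clonidine, against 0.106, 0.231 and 0.199 CPM in KO-Control. The gene was scarce in every library and the ranges of WT and KO libraries overlapped slightly. Its clonidine effects were 0.00 in WT hosts and 0.41 in KO hosts, a difference of -0.41 (SE 0.47, edgeR adjusted p = 0.83).

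At an adjusted p under 0.05, edgeR called 0 of 16125 genes in the difference (0%). Without adjustment, 656 genes lay higher (4.07% of those tested) and 786 lower (4.87%) at a p under 0.05. Scaling by total count instead of TMM turned that split to 1330 higher and 262 lower and moved the median of all genes from 0.003 to 0.088, so small differences are read here relative to the median of all genes. DESeq2 called 33 genes (0.205%) and limma-voom called 2 (0.0124%). The smallest adjusted p in edgeR was 0.057, shared by Sh3gl3, Apol8 and Esp8. A difference of 2 effects carries more error than either: the median SE over all genes was 0.157 for the difference and 0.111 for the effect in WT hosts and in KO hosts alike. The central range of the differences was narrow, with quartiles of -0.13 and 0.172. Genes of high level lay lower: the 6451 with a mean log2 CPM of at least 5 had a median of -0.044 and quartiles of -0.138 and 0.053. Of these, 10.7% had an unadjusted p under 0.05 in either direction, beside 8.94% of all genes. Genes below that did not pass adjustment are given by their values. Many of the named genes were chosen by a small p, so groups that do not overlap within a genotype follow in part from that choice. The share of all genes with such groups was not counted. Counts of list members at an unadjusted p under 0.05 are to be read beside the 4.07% higher and 4.87% lower of all genes.

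The effects in the 2 genotypes share no library and can be set side by side. In WT hosts 2079 of 16125 genes stood at an unadjusted p under 0.05 in edgeR. After adjustment edgeR called 0 genes there (0%), DESeq2 353 and limma-voom 773, each of 16125 tested. The 964 of them that were higher with clonidine had a median effect of 0.347 in WT hosts, and the same genes had a median of 0.011 in KO hosts. The 1115 that were lower had a median of -0.216 in WT hosts and 0.002 in KO hosts. Of the 2079, 51.2% had the same sign in KO hosts, beside 49.2% of all genes tested. The genes chosen for their effect in WT hosts were therefore centred near 0 in KO hosts, with quartiles there of -0.066 and 0.077 once each is signed by its WT effect. Among the 122 genes at an unadjusted p under 0.001 in WT hosts, the median signed effect was 0.398 in WT hosts and 0.019 in KO hosts, and 57.4% had the same sign. Read the other way, 890 genes chosen in KO hosts had a median signed effect of 0.28 there and 0.014 in WT hosts, and 53.5% shared the sign. At no change, 5% of the 16125 genes would be expected at an unadjusted p under 0.05. Many of the 890, and a part of the 2079, may therefore have been chosen without an effect. In KO hosts edgeR called 3 genes (0.0186%), all lower: Apol8, Rab11fip1 and Esp8. With the libraries titled KO-Guanabenz pooled with KO-Control, the shares of the same sign were 35.5% and 34.6%.

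**Figure D1:**
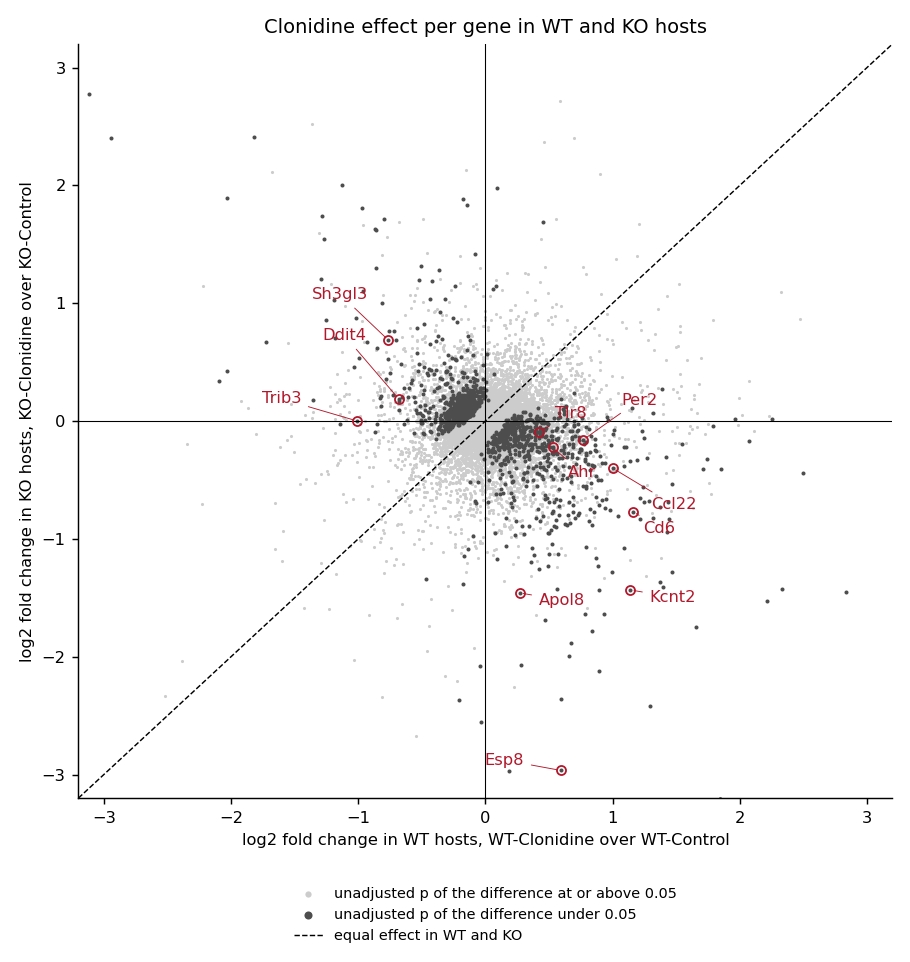
Each point is 1 of 16125 genes, with its log2 fold change of WT-Clonidine over WT-Control on the horizontal axis and of KO-Clonidine over KO-Control on the vertical axis. Dark points have an unadjusted p of the difference under 0.05, circles mark named genes, the dashed line marks equal effects, and 29 genes beyond the axes are not drawn. Trib3 and Tlr8 lie near the horizontal axis, away from 0 in WT hosts only, while Apol8 and Esp8 lie far below it.

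Among genes at an unadjusted p under 0.05 in the difference, WT-Clonidine was most often the group farthest from the other 3. Of the 656 higher genes, 348 also had an unadjusted p under 0.05 in WT hosts alone, 141 in KO hosts alone, 26 in both with opposite signs, and 141 in neither. Of the 786 lower genes these counts were 451, 137, 35 and 163. Of all 16125 genes, 1932 had that p in WT hosts alone, 743 in KO hosts alone, 147 in both and 13303 in neither. Signs were opposite in 61 of the 147. The effects in WT and KO hosts make up the difference, so the split of genes chosen by the difference is not independent of that choice. WT-Clonidine was the group farthest from the mean of the other 3 in 59.0% of the higher and 68.2% of the lower genes, and in 44.4% of all genes. In 1369 genes (8.49%) the 3 WT-Clonidine libraries lay outside the range of the other 9, above it in 680 (4.22%) and below it in 689 (4.27%). The same count was 68 for WT-Control, 206 for KO-Clonidine and 219 for KO-Control.

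Tlr8, Ahr and Pira2 were among the 680 genes that stood above all other libraries in WT-Clonidine. Tlr8, an endosomal Toll-like receptor (chromosome X, 167241123 to 167264329), was at 26.4, 24.8 and 23.2 CPM in WT-Clonidine, against 17.1, 19.6 and 18.7 CPM in WT-Control. It was at 18.5, 20.5 and 17.1 CPM in KO-Clonidine, against 20.1, 18.6 and 21.0 CPM in KO-Control. Its 3 WT-Clonidine values exceeded all 9 others, with effects of 0.42 (SE 0.09) in WT hosts and -0.09 (SE 0.09) in KO hosts and a difference of 0.52 (SE 0.12, adjusted p = 0.37 in edgeR and 0.042 in DESeq2). Ahr, a transcription factor activated by small ligands (chromosome 12, 35497979 to 35534989), was at 17.8, 18.3 and 20.4 CPM in WT-Clonidine, against 12.0, 14.4 and 12.8 CPM in WT-Control. It was at 10.8, 12.5 and 11.2 CPM in KO-Clonidine, against 14.7, 14.7 and 11.1 CPM in KO-Control. WT-Clonidine again lay above every other library, and the difference was 0.75 (SE 0.17, adjusted p = 0.34 in edgeR and 0.019 in DESeq2).

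Pira2, an activating receptor of myeloid cells in a multigene family whose reads may be divided among its members, was at 8.3, 7.4 and 9.05 CPM in WT-Clonidine, against 4.08, 4.68 and 4.76 CPM in WT-Control. It was at 3.17, 4.72 and 3.33 CPM in KO-Clonidine, against 4.48, 4.94 and 6.09 CPM in KO-Control, a difference of 1.33 (SE 0.28). Ccdc88c, a regulator of Wnt and G protein signalling, showed the same arrangement with 6.75 to 7.35 CPM in WT-Clonidine and 3.4 to 5.23 CPM over the other 9 libraries, a difference of 0.89 (SE 0.20). Gm4951, which RefSeq also lists as Ifgga2, was at 19.0 to 21.8 CPM in WT-Clonidine and 11.5 to 16.0 CPM in the other 9, a difference of 0.69 (SE 0.17). DESeq2 called all 3 genes and edgeR none, at adjusted p of 0.3 to 0.38. Tlr1, which pairs with another Toll-like receptor to sense lipopeptides, had one of the smallest p in WT hosts. Its level was 45.5, 38.9 and 39.8 CPM in WT-Clonidine, against 25.3, 26.7 and 29.2 CPM in WT-Control, and 26.0 to 33.3 CPM in the 6 KO libraries, a difference of 0.51 (SE 0.14, adjusted p = 0.39 in edgeR).

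On the lower side, Pafah1b3, a catalytic subunit of a platelet-activating factor acetylhydrolase, was at 32.4, 30.9 and 33.6 CPM in WT-Clonidine, against 51.6, 42.8 and 46.7 CPM in WT-Control. It ranged from 39.1 to 51.8 CPM in KO libraries, and the difference was -0.64 (SE 0.14). Ier5l was at 47.6 to 55.3 CPM in WT-Clonidine and 57.9 to 76.0 CPM in the other 9 libraries, a difference of -0.55 (SE 0.12). WT-Clonidine was below all other libraries in both genes, at an edgeR adjusted p of 0.3 for both and a DESeq2 adjusted p of 0.0099 for both.

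**Figure D2:**
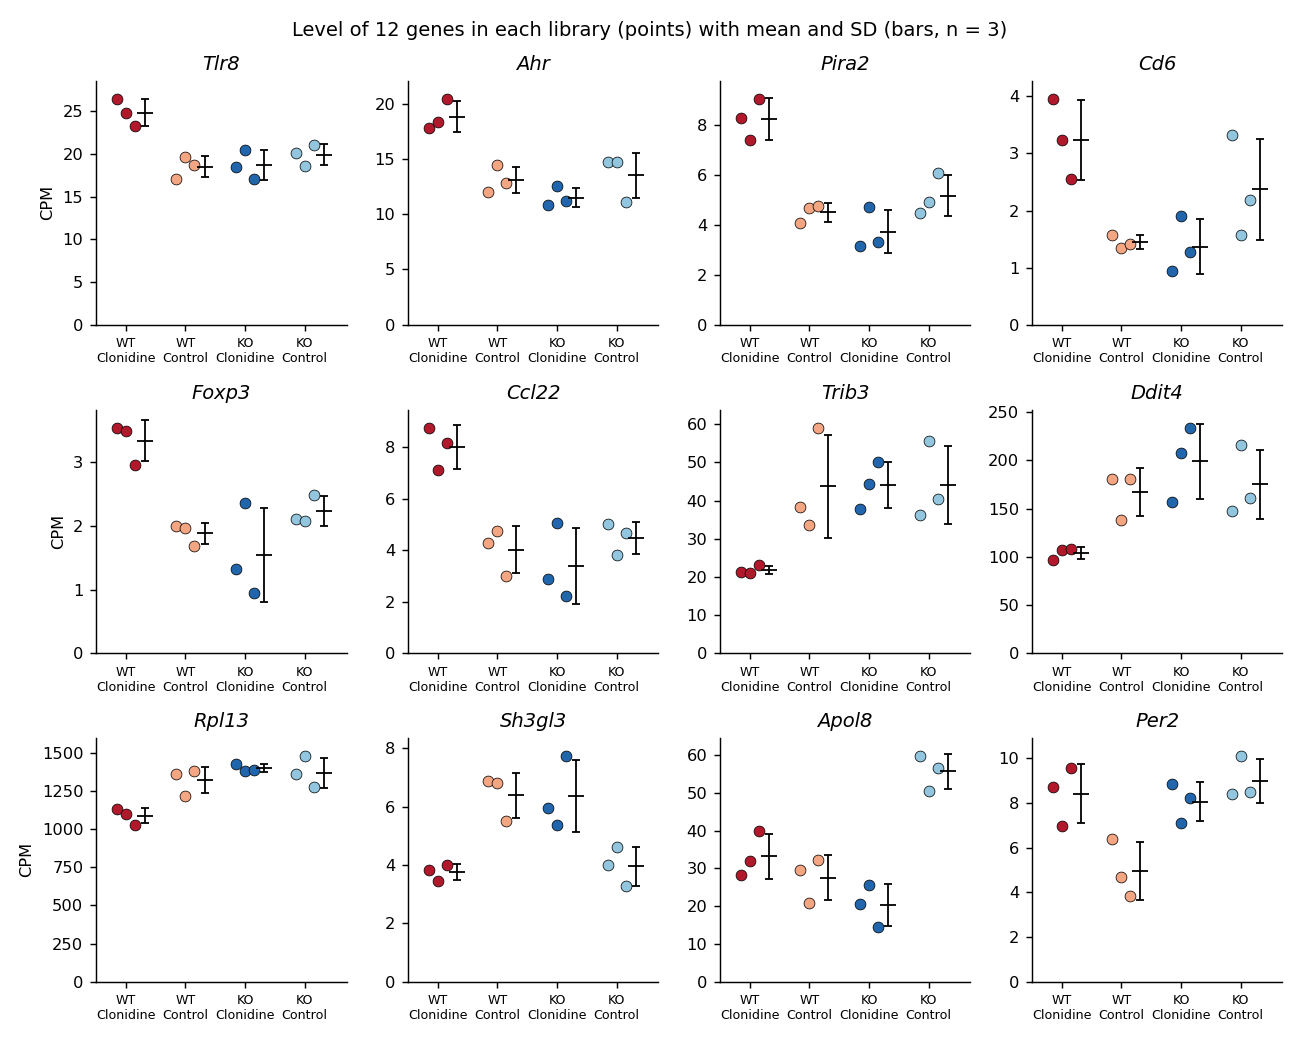
CPM of 12 genes in every library, by group, on linear axes that start at 0, with the mean and SD of each group of 3 beside its points. WT-Clonidine stands apart from the other 3 groups in Tlr8, Ahr, Pira2, Foxp3, Ccl22, Trib3, Ddit4 and Rpl13, KO-Control in Apol8, and WT-Control is the lowest group in Per2.

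Tumours of the 2 genotypes were also set directly against each other. KO-Clonidine against WT-Clonidine gave 403 genes in edgeR (2.5%), 293 of them higher in KO (1.82%) and 110 lower (0.682%). Total count scaling turned this split to 43 higher and 206 lower. KO-Control against WT-Control gave 1 gene (0.0062%), Neurl1a. These comparisons share libraries with the difference of effects, which is the test of whether they differ and which called 0 genes. The count of 403 changed with the omission of single libraries. It was 1 without WT-Clonidine 3, 2 without WT-Clonidine 2 and 48 without WT-Clonidine 1. It was 5 without KO-Clonidine 3, 70 without KO-Clonidine 1 and 312 without KO-Clonidine 2. At an unadjusted p under 0.05 the count was 3154, and 2353 to 3402 over the omissions. An omission also leaves fewer libraries in a group, and the part of that was not tested. The same limit holds for every single gene given below as called between KO-Clonidine and WT-Clonidine. Y-linked transcripts were present in none of the KO-Clonidine libraries and in 2 of the WT-Clonidine libraries, and a term for them left 213 genes. Neurl1a, a gene chosen after its values were seen, was at 16.8, 16.2 and 15.5 CPM in KO-Clonidine and 12.7, 14.5 and 15.4 CPM in KO-Control, against 7.7, 5.56 and 7.04 CPM in WT-Clonidine and 8.35, 6.19 and 5.98 CPM in WT-Control. It separated the genotypes under either treatment, by 1.26 (SE 0.15, adjusted p = 0.0051) with clonidine and 1.06 (SE 0.15, adjusted p = 0.048) in controls, and its clonidine effects were -0.01 in WT hosts and 0.19 in KO hosts. Neurl1a lies on chromosome 19 at 47178820 to 47259441, the chromosome that also carries Adra2a.

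T cell genes stood on the positive side of the difference. The T cell receptor complex pairs antigen-binding chains with the CD3 signalling chains, CD4 and CD8 are its coreceptors, and CD5 and CD6 are surface receptors that tune its signal. All 12 tested members of the receptor and coreceptor list had a positive difference, with a median of 0.846 beside 0.003 for all genes. Of the 12, 6 lay higher at an unadjusted p under 0.05 and 0 lower, beside 4.07% and 4.87% of all genes. After adjustment edgeR called 0 of them and DESeq2 called 2, Cd5 and Cd6, beside 0.205% of all genes in DESeq2. The median effect was 0.790 in WT hosts, where 12 of 12 were positive, and -0.194 in KO hosts, where 4 of 12 were. In a bulk sample, fewer cells of a type and less RNA per cell cannot be told apart. The mean log2 CPM of this list, relative to its mean over the 12 libraries, was 0.79, 0.57 and 0.27 in WT-Clonidine, against -0.56, 0.01 and -0.1 in WT-Control. It was -0.59, 0.04 and -0.22 in KO-Clonidine, against 0.2, -0.27 and -0.14 in KO-Control. WT-Clonidine was above every other library, while the 2 KO groups overlapped.

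Cd6 (chromosome 19, 10789339 to 10830062) was at 3.95, 3.23 and 2.55 CPM in WT-Clonidine, against 1.58, 1.35 and 1.42 CPM in WT-Control. It was at 0.95, 1.9 and 1.27 CPM in KO-Clonidine, against 3.33, 1.58 and 2.19 CPM in KO-Control. The groups did not overlap in WT hosts and did in KO hosts, with effects of 1.16 (SE 0.28) and -0.77 (SE 0.28) and a difference of 1.93 (SE 0.40, adjusted p = 0.3 in edgeR and 0.0025 in DESeq2). Cd5 was at 3.19, 2.86 and 2.07 CPM in WT-Clonidine, against 1.27, 1.57 and 1.37 CPM in WT-Control. It was at 0.917, 1.28 and 0.955 CPM in KO-Clonidine, against 1.93, 1.23 and 1.84 CPM in KO-Control, a difference of 1.61 (SE 0.34). In edgeR both genes were called lower in KO-Clonidine than in WT-Clonidine, as were 0.682% of all genes. They were lower by 1.36 for Cd5 (adjusted p = 0.02) and by 1.23 for Cd6 (adjusted p = 0.033). That contrast gave 1 call in all without WT-Clonidine 3 and 5 without KO-Clonidine 3. The coreceptors varied more: Cd8a was at 11.7, 10.2 and 8.76 CPM in WT-Clonidine, against 3.06, 7.06 and 6.92 CPM in WT-Control, and 4.37 to 8.36 CPM in KO libraries, a difference of 0.78 (SE 0.51). Cd4 overlapped in both genotypes, with a difference of 0.46 (SE 0.32). Cd3e and Cd3g, chains of the CD3 complex, had differences of 1.01 (SE 0.43) and 1.13 (SE 0.48).

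Genes of T cell signalling and costimulation were arranged in the same way, with 19 of 20 positive, a median of 0.572, 8 higher and 0 lower at an unadjusted p under 0.05. After adjustment edgeR and DESeq2 called 0 of them. Icos, a costimulatory receptor, was at 3.22, 2.63 and 2.72 CPM in WT-Clonidine, against 1.67, 2.12 and 1.27 CPM in WT-Control. It was at 1.22, 1.27 and 0.807 CPM in KO-Clonidine, against 1.63, 1.22 and 1.95 CPM in KO-Control, a difference of 1.32 (SE 0.42). WT-Clonidine lay above the other 9 libraries. Icos was called lower in KO-Clonidine than in WT-Clonidine (-1.39, SE 0.30, edgeR adjusted p = 0.026), in the contrast whose calls changed with single libraries. Lcp2, an adaptor downstream of the receptor that myeloid and mast cells also use, was at 71.0, 64.5 and 58.7 CPM in WT-Clonidine and 43.9 to 52.4 CPM in the other 9, a difference of 0.40 (SE 0.15). Themis, a regulator of receptor signalling, had a difference of 1.48 (SE 0.49) and Lat, a scaffold of that pathway, 0.80 (SE 0.34).

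The regulatory T cell list had a median difference of 0.980, with 8 of 10 positive, 6 higher and 0 lower at an unadjusted p under 0.05. Foxp3, the factor that defines these cells (chromosome X, 7579676 to 7595243), was at 3.54, 3.48 and 2.96 CPM in WT-Clonidine, against 1.99, 1.96 and 1.69 CPM in WT-Control. It was at 1.32, 2.36 and 0.948 CPM in KO-Clonidine, against 2.11, 2.08 and 2.49 CPM in KO-Control. WT-Clonidine exceeded all other libraries, and the difference was 1.35 (SE 0.41, adjusted p = 0.42). Ikzf4, a partner of Foxp3, was at 1.69, 1.28 and 1.3 CPM in WT-Clonidine, against 0.893, 0.843 and 0.712 CPM in WT-Control. It was at 0.717, 0.617 and 0.602 CPM in KO-Clonidine, against 0.791, 0.782 and 0.906 CPM in KO-Control. The groups did not overlap in either genotype and were ordered in opposite ways, a difference of 1.18 (SE 0.32). Ikzf4 was called lower in KO-Clonidine than in WT-Clonidine (-1.15, SE 0.22, edgeR adjusted p = 0.022), in the contrast whose calls changed with single libraries. Ctla4, an inhibitory receptor that regulatory and activated T cells carry, likewise had groups that did not overlap in either genotype. Its level was 2.71, 2.38 and 1.82 CPM in WT-Clonidine, against 1.31, 1.8 and 1.2 CPM in WT-Control, and 0.917, 1.23 and 0.637 CPM in KO-Clonidine, against 1.61, 1.42 and 1.71 CPM in KO-Control. The difference was 1.46 (SE 0.48).

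The checkpoint and exhaustion list shares Ctla4 and Tnfrsf18 with the regulatory T cell list. Of its 16 members, 13 were positive, with a median of 0.657. At an unadjusted p under 0.05, 8 were higher and 0 lower. Besides Ctla4, the list holds Tox, which drives the exhausted state of T cells (1.39, SE 0.44), Tigit, an inhibitory receptor (1.00, SE 0.31), and Havcr2, a receptor of exhausted T cells that myeloid cells also carry (0.48, SE 0.15). The cytotoxic effector list had 7 of 12 positive, a median of 0.088 and 0 members at an unadjusted p under 0.05 in either direction, and its quartiles of -0.682 and 0.554 span 0. Gzmb, a granule protease of killer cells, was at 6.44, 4.02 and 6.79 CPM in WT-Clonidine, against 5.28, 9.57 and 4.84 CPM in WT-Control. It was at 7.62, 3.67 and 7.25 CPM in KO-Clonidine, against 3.34, 7.77 and 3.84 CPM in KO-Control. The groups overlapped in both genotypes, and the difference was -0.50 (SE 0.50). The median of the cytotoxic list changed sign under 5 of 23 alternatives. NK cell genes had a median of 0.504 with 10 of 12 positive and 1 higher, which became 0.262 without KO-Control 2. Naive and memory lymphocyte genes had a median of 0.242, with 6 of 9 positive and 3 higher (among them Ccr7 and Cd27), and B cell and plasma cell genes 0.270 with 8 of 11 positive and 0 at an unadjusted p under 0.05. The first median was 0.14 without WT-Clonidine 3 and 0.391 without KO-Clonidine 2, and the other was 0.108 and 0.461 in these settings and 0.104 without KO-Clonidine 1.

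Dendritic cell and chemokine genes also lay on the positive side, while macrophage genes were centred near 0. Conventional dendritic cell genes had a median difference of 0.526 (10 of 12 positive, 2 higher and 0 lower at an unadjusted p under 0.05). Chemokines and receptors of lymphocytes had a median of 0.697 (13 of 14 positive, 3 higher, 0 lower). These lists share members: the 2 higher dendritic cell genes, Ccr7 and Ccl22, are among the 3 higher chemokine genes. The other, Cxcl9, is also in the interferon gamma list, and Ccr7 is also in the naive and memory list. Ccl22, a chemokine of dendritic cells and macrophages that attracts regulatory T cells through its receptor CCR4, was at 8.77, 7.11 and 8.16 CPM in WT-Clonidine, against 4.3, 4.75 and 3.0 CPM in WT-Control. It was at 2.9, 5.05 and 2.24 CPM in KO-Clonidine, against 5.02, 3.8 and 4.66 CPM in KO-Control. WT-Clonidine lay above the other 9 libraries, with effects of 1.00 (SE 0.34) in WT hosts and -0.40 (SE 0.34) in KO hosts and a difference of 1.40 (SE 0.48, adjusted p = 0.45). Ccr7, which guides dendritic cells and naive T cells to lymph nodes, and Cxcl9, a chemokine induced by interferon gamma, had differences of 1.07 (SE 0.37) and 1.14 (SE 0.51). In the macrophage and monocyte list 6 of 15 were positive and the median was -0.032, which turned to 0.052 under total count scaling. Its 1 member at an unadjusted p under 0.05 was Ccr2, the receptor that recruits monocytes (0.84, SE 0.38). Its mean level stayed between -0.16 and 0.19 in all 12 libraries, whereas that of the T cell receptor list ran from -0.59 to 0.79. Neutrophil genes had a median of -0.146 with quartiles of -0.914 and 0.181, and the median was 0.268 without KO-Clonidine 3 and -1.383 without WT-Clonidine 3.

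Interferon gamma response genes, which T and NK cells induce in other cells, had a median difference of 0.320 with 16 of 21 positive, 6 higher and 0 lower at an unadjusted p under 0.05. Type I interferon response genes had a median of 0.055 with 11 of 19 positive and 0 at that p in either direction. Iigp1, an interferon-inducible GTPase, was at 123, 120 and 129 CPM in WT-Clonidine, against 72.6, 88.8 and 90.3 CPM in WT-Control. It was at 71.6, 75.1 and 67.6 CPM in KO-Clonidine, against 75.1, 80.6 and 67.4 CPM in KO-Control. WT-Clonidine stood above all other libraries, and the difference was 0.62 (SE 0.19, edgeR adjusted p = 0.43). Iigp1 was called lower in KO-Clonidine than in WT-Clonidine (-0.80, SE 0.14, edgeR adjusted p = 0.018), in the contrast whose calls changed with single libraries. Gbp7 and Gbp8, guanylate-binding proteins of a family with similar copies, had differences of 0.53 (SE 0.18) and 1.18 (SE 0.43). Genes of MHC class II presentation, which dendritic cells and macrophages use to show antigen to CD4 T cells, had a median of 0.537 with 8 of 9 positive and 0 at an unadjusted p under 0.05. The median was 0.304 without WT-Control 1 and 0.927 without WT-Control 3. H2-Aa, a class II chain, was at 322, 329 and 517 CPM in WT-Clonidine, against 185, 234 and 396 CPM in WT-Control, and 163 to 321 CPM in KO libraries, and its groups overlapped in both genotypes (0.68, SE 0.56). Class I presentation genes had a median of 0.039.

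Mast cell and eosinophil genes had a high median, 0.974, from low levels (9 of 11 positive, 3 higher, 0 lower). Cpa3, a mast cell protease, was at 4.33, 4.81 and 1.75 CPM in WT-Clonidine, against 1.12, 0.997 and 0.714 CPM in WT-Control. It was at 1.97, 3.08 and 1.26 CPM in KO-Clonidine, against 2.87, 1.41 and 1.97 CPM in KO-Control, a difference of 1.95 (SE 0.83). The groups overlapped in KO hosts, and WT-Control was the lowest of the 4. Without KO-Control 3 the median of the list was 0.635, and without KO-Clonidine 2 it was 1.712. Ccr3, a chemokine receptor of eosinophils, had a difference of 1.68 (SE 0.44) at 0.177 to 0.541 CPM.

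**Figure D3:**
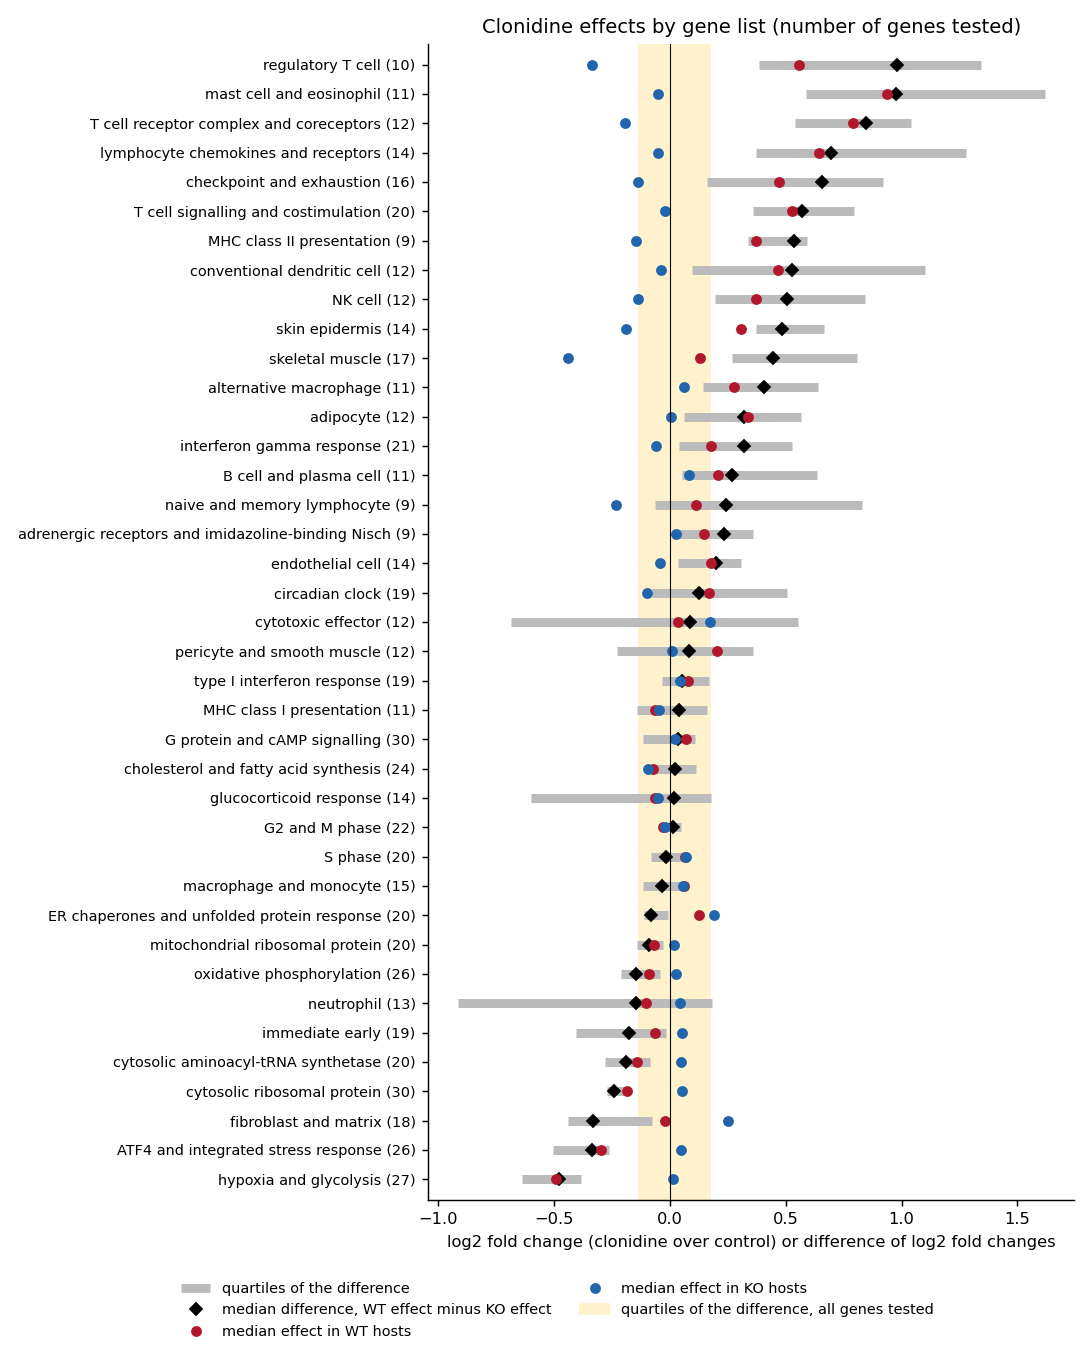
For each gene list, with the number of genes tested, the black diamond is the median difference, the grey bar its quartiles, and red and blue points are the median clonidine effects in WT and KO hosts, all on the log2 scale. The yellow band spans the quartiles of all genes tested, -0.13 to 0.172. T cell, mast cell and chemokine lists lie to its right and hypoxia, ATF4 and ribosomal protein lists to its left, while most KO medians lie near 0. The erythroid and Y-linked lists fall outside the axis and are given in the text.

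Genes of the integrated stress response lay on the lower side. In this response a shortage of amino acids or other stress leads to translation of the transcription factor ATF4, which induces genes of amino acid synthesis, uptake and tRNA charging. Of 26 tested members, 2 had a positive difference and 24 a negative one, with a median of -0.333, 13 lower and 0 higher at an unadjusted p under 0.05, beside 4.87% and 4.07% of all genes. After adjustment edgeR called 0 of them and DESeq2 called 2, Trib3 and Ddit4, beside 0.205% of all genes in DESeq2. The median effect was -0.295 in WT hosts and 0.047 in KO hosts. WT-Clonidine lay below the other 9 libraries in 12 of the 26, beside 4.27% of all genes. KO-Clonidine against WT-Clonidine called 10 of the 26 higher in KO in edgeR, beside 1.82% of all genes. The count of calls in that contrast changed with the omission of single libraries. The 2 positive members were Phgdh, the first enzyme of serine synthesis (0.10, SE 0.18), and Stc2 (0.28, SE 0.32). The mean log2 CPM of the list, relative to the 12 libraries, was -0.29, -0.31 and -0.22 in WT-Clonidine, against -0.03, 0.01 and 0.23 in WT-Control. It was 0.14, -0.05 and 0.28 in KO-Clonidine, against -0.03, 0.28 and -0.01 in KO-Control.

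Trib3, a pseudokinase induced by ATF4 (chromosome 2, 152337425 to 152344060), was at 21.4, 20.9 and 23.1 CPM in WT-Clonidine, against 38.4, 33.7 and 59.1 CPM in WT-Control. It was at 37.8, 44.4 and 50 CPM in KO-Clonidine, against 36.3, 55.6 and 40.3 CPM in KO-Control. WT-Clonidine was below every other library, with effects of -1.01 (SE 0.18) in WT hosts and 0.00 (SE 0.18) in KO hosts, a difference of -1.01 (SE 0.25, adjusted p = 0.38 in edgeR and 0.031 in DESeq2). Ddit4, an inhibitor of mTORC1, was at 96.9, 107 and 108 CPM in WT-Clonidine, against 181, 138 and 181 CPM in WT-Control. It was at 157, 208 and 234 CPM in KO-Clonidine, against 148, 216 and 161 CPM in KO-Control, a difference of -0.87 (SE 0.20, adjusted p = 0.36). Sesn2, a leucine sensor, was at 23.8, 24.8 and 25.2 CPM in WT-Clonidine and 30.2 to 40.5 CPM in the other 9 libraries, a difference of -0.51 (SE 0.15). In all 3 genes WT-Clonidine was the lowest group. In edgeR all 3 were called higher in KO-Clonidine than in WT-Clonidine, by 1.02 for Trib3 (adjusted p = 0.018), 0.94 for Ddit4 (0.018) and 0.52 for Sesn2 (0.022). Calls of that contrast changed with single libraries. Chac1, an enzyme that degrades glutathione, was at 4.37, 4.72 and 4.89 CPM in WT-Clonidine, against 6.35, 6.5 and 9.48 CPM in WT-Control, and 5.53 to 9.04 CPM in KO libraries (-0.85, SE 0.25). Psat1, an enzyme of serine synthesis, and Asns, which makes asparagine, had differences of -0.54 (SE 0.16) and -0.48 (SE 0.15), and Atf4 itself -0.33 (SE 0.11).

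The ATF4 composite element, searched as TGATGNAA on both strands, was found in the promoter of 8 of the 24 list members with a promoter in RefSeq (33.3%), beside 388 of 12684 tested genes (3.06%) and 1304 of 32851 promoters (3.97%). Promoters here span 250 bases before to 50 bases after the transcript start that the RefSeq promoter table uses for a gene. The 2 list members with the smallest p of the difference among those with a match are shown, 5′ to 3′ on the gene's strand, with the match in capitals. Trib3 is on the minus strand at chr2:152344011-152344310 and Chac1 on the plus strand at chr2:119350992-119351291 (GRCm38.p6, RefSeq).

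Trib3: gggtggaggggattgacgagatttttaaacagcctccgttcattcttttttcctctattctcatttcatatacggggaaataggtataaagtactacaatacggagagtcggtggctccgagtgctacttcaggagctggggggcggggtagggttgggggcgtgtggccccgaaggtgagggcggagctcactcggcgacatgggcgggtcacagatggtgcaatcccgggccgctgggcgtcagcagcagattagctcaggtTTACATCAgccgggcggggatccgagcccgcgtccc

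Chac1: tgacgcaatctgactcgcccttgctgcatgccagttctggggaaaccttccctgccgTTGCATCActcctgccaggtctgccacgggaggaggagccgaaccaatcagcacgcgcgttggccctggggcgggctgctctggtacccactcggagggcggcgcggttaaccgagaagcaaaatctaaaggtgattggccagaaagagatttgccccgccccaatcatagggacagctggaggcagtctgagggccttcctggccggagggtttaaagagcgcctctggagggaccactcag

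Both matches read on the opposite strand of the one printed, at 14 bases past the start in Trib3 and 193 bases before it in Chac1. A match describes these letters only and was not tested as a binding site. The list was written around ATF4, so its share of matches describes the choice of members and not an effect of clonidine.

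Genes that charge tRNAs and build ribosomes also lay lower in WT-Clonidine, by smaller amounts. Of 20 cytosolic aminoacyl-tRNA synthetases 19 had a negative difference, with a median of -0.190 (-0.105 under total count scaling), 9 lower at an unadjusted p under 0.05, beside 4.87% of all genes, and 0 higher. In edgeR 8 were called higher in KO-Clonidine than in WT-Clonidine, beside 1.82% of all genes. The calls of that contrast changed with single libraries and with the scaling. Sars, which charges serine tRNA, was at 279, 267 and 259 CPM in WT-Clonidine, against 345, 325 and 353 CPM in WT-Control. It was at 372, 339 and 371 CPM in KO-Clonidine, against 339, 374 and 384 CPM in KO-Control. WT-Clonidine was below every other library and the difference was -0.33 (SE 0.09, adjusted p = 0.4). The direct comparison of KO-Clonidine with WT-Clonidine called it at 0.43 (SE 0.07, adjusted p = 0.018). ER chaperones, which respond to a different branch of stress signalling, had a median of -0.082 (0.003 under total count scaling) with 0 of 20 at an unadjusted p under 0.05 in either direction. Clonidine effects on the chaperones were positive for 20 of 20 in WT hosts and 18 of 20 in KO hosts.

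All 30 tested cytosolic ribosomal protein genes had a negative difference, with a median of -0.238 and quartiles of -0.27 and -0.195. At an unadjusted p under 0.05, 21 were lower, beside 4.87% of all genes. Of the 30, 24 were called higher in KO-Clonidine than in WT-Clonidine, beside 1.82% of all genes. Under total count scaling that contrast called 43 genes higher in KO and 206 lower. The count of its calls also changed with the omission of single libraries. Rpl13, a protein of the large subunit, was at 1130, 1100 and 1030 CPM in WT-Clonidine, against 1360, 1220 and 1380 CPM in WT-Control. It was at 1430, 1380 and 1390 CPM in KO-Clonidine, against 1360, 1480 and 1280 CPM in KO-Control, a difference of -0.31 (SE 0.09, adjusted p = 0.4). Rps28, of the small subunit, was at 523, 526 and 530 CPM in WT-Clonidine, against 640, 608 and 597 CPM in WT-Control. It was at 714, 717 and 648 CPM in KO-Clonidine, against 627, 637 and 595 CPM in KO-Control. The groups of Rps28 did not overlap in either genotype and were ordered in opposite ways, a difference of -0.39 (SE 0.08, adjusted p = 0.3 in edgeR and 0.0013 in DESeq2). Ribosomal protein genes have many processed copies in the genome, among which the authors' counting could divide reads. Under total count scaling the median of this list was -0.155, relative to a median of 0.088 for all genes.

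Oxidative phosphorylation genes had a median of -0.146 (25 of 26 negative, 6 lower, 0 higher), with Uqcrq, a subunit of complex III, at -0.32 (SE 0.08) and Ndufa1, of complex I, at -0.26 (SE 0.08). Mitochondrial ribosomal protein genes had a median of -0.090 with 0 at an unadjusted p under 0.05, and under total count scaling -0.005. For scale, the median was -0.044 and the lower quartile -0.138 over all genes with a mean log2 CPM of at least 5. The differences moved with transcript length: their median was -0.075 in the shortest of 5 equal bins of genes, -0.021, 0.002 and 0.021 in the next 3, and 0.059 in the longest. In WT hosts these medians ran from -0.055 to 0.052, and in KO hosts from 0.018 to -0.006. The median transcript length was 1200 bases for the ribosomal protein genes and 1630 for the oxidative phosphorylation genes, beside 3330 for all genes. The part of length in these lists was not tested.

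Hypoxia and glycolysis genes, many of which are targets of hypoxia-inducible factors, had negative differences in 27 of 27, with a median of -0.477. At an unadjusted p under 0.05, 9 were lower, beside 4.87% of all genes. The median effect was -0.491 in WT hosts and 0.013 in KO hosts. In edgeR 1 of the 27 was called higher in KO-Clonidine than in WT-Clonidine, beside 1.82% of all genes. Ldha, which makes lactate (chromosome 7, 46842274 to 46855627), was at 627, 616 and 779 CPM in WT-Clonidine, against 914, 935 and 1000 CPM in WT-Control. It was at 797, 833 and 1110 CPM in KO-Clonidine, against 823, 1120 and 840 CPM in KO-Control, a difference of -0.48 (SE 0.18, adjusted p = 0.5). Pkm, pyruvate kinase of most tissues other than liver and red cells (chromosome 9, 59656576 to 59679372), was at 1610, 1620 and 1780 CPM in WT-Clonidine, against 2150, 2080 and 2330 CPM in WT-Control. It was at 1980, 2130 and 2650 CPM in KO-Clonidine, against 2220, 2440 and 1930 CPM in KO-Control, a difference of -0.43 (SE 0.14). WT-Clonidine was below the other 9 libraries in both genes and in 13 of the 27, beside 4.27% of all genes. The KO groups were uneven: the mean level of the list was -0.23, -0.05 and 0.63 in KO-Clonidine and -0.08, 0.53 and 0.01 in KO-Control, beside -0.6, -0.45 and -0.12 in WT-Clonidine and 0.0, 0.21 and 0.15 in WT-Control. Without KO-Clonidine 3 the median difference was -0.228. In Pkm and Ldha the difference ran from -0.52 to -0.30 and from -0.63 to -0.31 over the omission of each library.

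The core of the hypoxia response element, searched as ACGTG on both strands, was found in the promoter of 16 of 25 list members (64.0%), beside 3449 of 12684 tested genes (27.2%) and 6447 of 32851 promoters (19.6%). The members with the smallest p among those with a match were Pkm and Ldha, whose table starts lie inside the gene spans given above. Pkm is on the plus strand at chr9:59656977-59657276 and Ldha on the plus strand at chr7:46845554-46845853 (GRCm38.p6, RefSeq), with matches in capitals.

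Pkm: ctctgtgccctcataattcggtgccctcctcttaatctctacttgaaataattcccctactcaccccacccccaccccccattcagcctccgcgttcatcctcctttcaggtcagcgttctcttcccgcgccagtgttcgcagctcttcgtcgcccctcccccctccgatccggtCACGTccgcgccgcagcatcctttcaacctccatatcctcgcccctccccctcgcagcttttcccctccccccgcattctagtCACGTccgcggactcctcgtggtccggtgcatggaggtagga

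Ldha: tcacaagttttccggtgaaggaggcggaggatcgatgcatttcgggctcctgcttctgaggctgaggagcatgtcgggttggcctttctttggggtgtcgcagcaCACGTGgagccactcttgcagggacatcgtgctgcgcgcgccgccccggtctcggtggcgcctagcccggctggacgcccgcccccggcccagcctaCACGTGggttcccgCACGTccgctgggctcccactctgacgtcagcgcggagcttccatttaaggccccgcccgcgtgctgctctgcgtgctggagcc

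Pkm held 2 matches and Ldha 5, where ACGTG read on both strands of CACGTG counts for each strand. This list was written around the hypoxia response, so its share of matches likewise describes the choice of members and not an effect of clonidine.

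**Figure D4:**
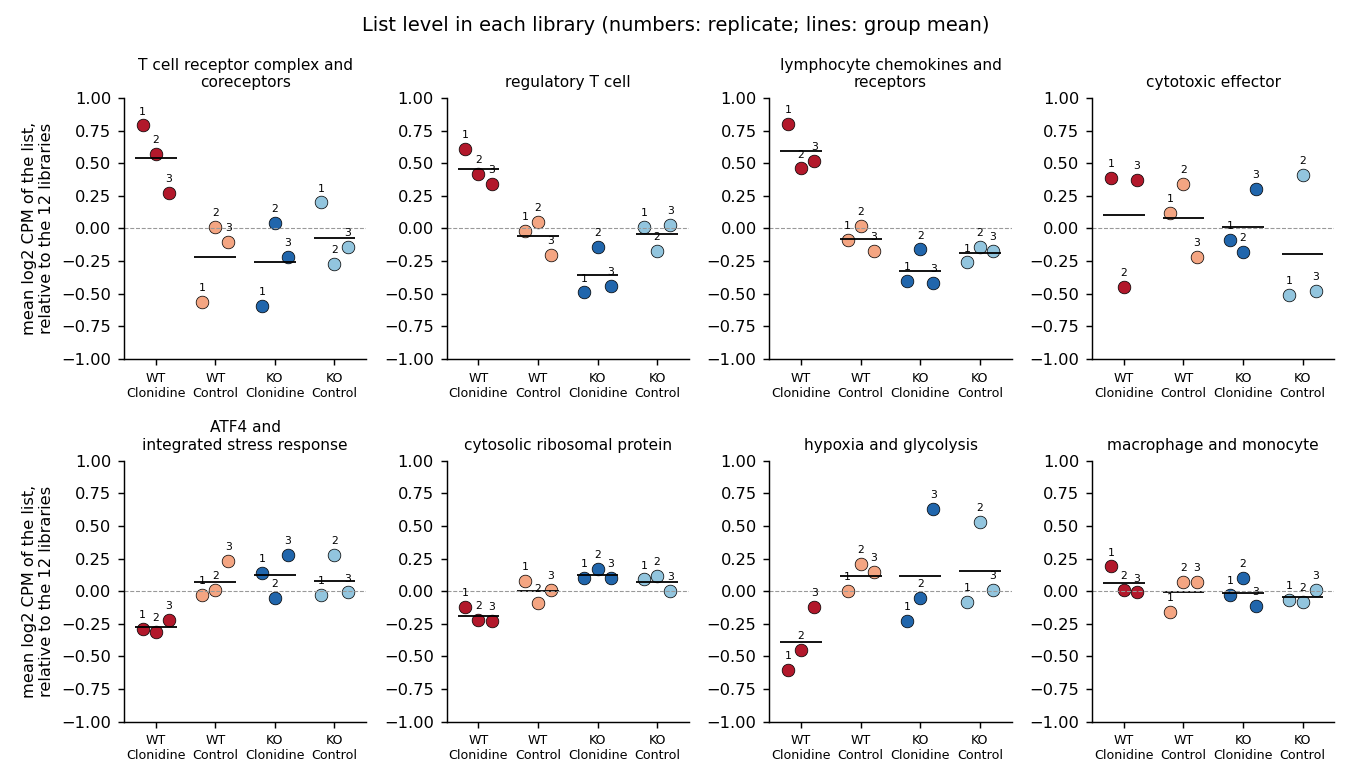
Mean log2 CPM of 8 gene lists in each library, relative to the mean of the 12 libraries, with replicate numbers above the points and a line at each group mean. The WT-Clonidine libraries lie above all others in the T cell receptor, regulatory T cell and chemokine lists and below all others in the ATF4 and ribosomal protein lists. KO-Clonidine 3 and KO-Control 2 stand high in the hypoxia list.

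The genes with the smallest p of the difference had other arrangements. Sh3gl3, an endophilin (chromosome 7, 82173808 to 82307420), was at 3.83, 3.47 and 4.02 CPM in WT-Clonidine, against 6.87, 6.82 and 5.52 CPM in WT-Control. It was at 5.97, 5.38 and 7.74 CPM in KO-Clonidine, against 4.0, 4.62 and 3.28 CPM in KO-Control. The groups did not overlap in either genotype, with effects of -0.76 (SE 0.15) in WT hosts and 0.69 (SE 0.15) in KO hosts. The difference was -1.45 (SE 0.22), with an adjusted p of 0.057 in edgeR, 0.016 in limma-voom and 6.3e-07 in DESeq2. Its levels in WT-Clonidine and KO-Control overlapped, as did those in WT-Control and KO-Clonidine.

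Apol8, an apolipoprotein L family member (chromosome 15, 77745109 to 77757062), was at 28.3, 31.9 and 39.9 CPM in WT-Clonidine, against 29.7, 20.9 and 32.2 CPM in WT-Control. It was at 20.7, 25.6 and 14.6 CPM in KO-Clonidine, against 59.8, 50.6 and 56.7 CPM in KO-Control. KO-Control lay above the other 9 libraries, so the difference of 1.73 (SE 0.27, adjusted p = 0.057 in edgeR and 6.3e-07 in DESeq2) lay mainly in KO hosts, where Apol8 fell by 1.46 (SE 0.19, adjusted p = 0.015), beside 0.27 (SE 0.19) in WT hosts. Esp8, a secreted peptide gene in a multicopy family, was at 0.584, 0.301 and 0.212 CPM in KO-Clonidine, against 2.58, 3.4 and 2.23 CPM in KO-Control, and 0.501 to 1.49 CPM in WT-Clonidine, against 0.504 to 0.883 CPM in WT-Control (3.56, SE 0.57). Rab11fip1, a Rab11 effector of endosome recycling, was at 15.1, 14.8 and 13.8 CPM in KO-Clonidine, against 32.3, 26.3 and 27.2 CPM in KO-Control. In WT hosts it was at 14.1, 17.3 and 19.0 CPM in WT-Clonidine, against 16.8, 16.7 and 20.2 CPM in WT-Control, and the difference was 0.88 (SE 0.19). KO-Control was the group apart in all 3 genes. Against WT-Control, edgeR gave it an adjusted p of 0.18 for Apol8 and Esp8 and 0.33 for Rab11fip1, in a contrast where DESeq2 called 17 genes.

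Other genes with opposite effects in both genotypes included Map3k10, a kinase upstream of JNK. Its level was 35.4, 33.1 and 33.0 CPM in WT-Clonidine, against 37.4, 35.5 and 37.3 CPM in WT-Control, and 40.6, 37.7 and 41.6 CPM in KO-Clonidine, against 33.2, 33.0 and 33.6 CPM in KO-Control (-0.39, SE 0.07). Actg1, the gamma actin of the cytoskeleton, was at 1990, 2180 and 2050 CPM in WT-Clonidine, against 2440, 2200 and 2480 CPM in WT-Control. It was at 2470, 2320 and 2660 CPM in KO-Clonidine, against 2260, 2120 and 2080 CPM in KO-Control (-0.40, SE 0.10). Fcrls, an Fc receptor-like gene of myeloid cells in mouse, was at 277, 238 and 249 CPM in WT-Clonidine, against 356, 383 and 347 CPM in WT-Control. It was at 431, 347 and 353 CPM in KO-Clonidine, against 330, 267 and 319 CPM in KO-Control (-0.81, SE 0.20). The groups of these 3 genes did not overlap in either genotype, DESeq2 called all 3, and edgeR called none, at adjusted p of 0.3 to 0.38. All 3 were named for a small p or a DESeq2 call of the difference, from which such groups follow in part. Acsm3, an acyl-CoA synthetase, and Cntn4, a contactin, had 1 library far above the rest. KO-Control 1 held 17.1 CPM of Acsm3 and KO-Control 2 held 9.54 CPM of Cntn4, beside 0.719 to 4.51 CPM and 1.15 to 3.8 CPM in the other 11 libraries. Over the omission of each library their differences of 3.72 (SE 0.84) and 2.16 (SE 0.55) fell as low as 2.17 and 1.38.

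Stromal, vascular and other tissue genes moved with single libraries. Genes of fibroblasts and matrix had a median difference of -0.329 (14 of 18 negative, 3 lower, 0 higher at an unadjusted p under 0.05), and -0.120 without KO-Clonidine 3. Col1a1, a chain of type I collagen, was at 3370, 3230 and 3730 CPM in WT-Clonidine, against 5140, 3710 and 3260 CPM in WT-Control. It was at 4180, 3460 and 5200 CPM in KO-Clonidine, against 3670, 2940 and 2350 CPM in KO-Control (-0.75, SE 0.24). The groups overlapped in both genotypes. Pericyte and smooth muscle genes divided evenly, with 6 of 12 positive and 3 higher at an unadjusted p under 0.05, and a median of 0.083 that was 0.013 without KO-Clonidine 2 and 0.206 without KO-Clonidine 3. Among them Rgs5 and Notch3 had differences of 0.37 (SE 0.16) and 0.36 (SE 0.16) and stood above the other 9 libraries in WT-Clonidine. Both were called lower in KO-Clonidine than in WT-Clonidine (-0.52, adjusted p = 0.029, and -0.56, adjusted p = 0.024, edgeR). Calls of that contrast changed with single libraries. Endothelial genes had a median of 0.199 with 12 of 14 positive and 1 higher, Tek, a receptor for angiopoietins (0.64, SE 0.30).

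Transcripts of red cells, muscle and skin varied between libraries, with KO-Clonidine 3 the highest in the red cell list and the lowest in the other lists. The 6 tested erythroid genes had a median difference of -2.957, with 5 lower at an unadjusted p under 0.05. Their summed level was 88.9 to 177 CPM in WT-Clonidine, against 174 to 293 CPM in WT-Control, and 405 to 1620 CPM in KO-Clonidine, against 143 to 387 CPM in KO-Control. Slc4a1, the anion exchanger of red cells, was at 0.0857, 0.053 and 0.103 CPM in WT-Clonidine and reached 7.19 CPM in KO-Clonidine 3. Without KO-Clonidine 3 the erythroid median was -2.02. The median of the skeletal muscle list was 0.447, with 2 of 17 higher at an unadjusted p under 0.05, and that of the skin epidermis list 0.483 with 0 of 14. Without KO-Clonidine 3 these medians were 0.175 and 0.093. The summed level of the skin genes was 167 to 266 CPM in WT-Clonidine, against 162 to 176 CPM in WT-Control, and 59.0 to 240 CPM in KO-Clonidine, against 101 to 256 CPM in KO-Control, so the ranges overlapped. The part that blood, muscle or skin in the samples had in the other differences was not tested.

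Among the clock genes, Per2 and Per3 were lowest in WT-Control. In Per2, a repressor of the circadian clock, WT-Clonidine was at 8.72, 6.97 and 9.57 CPM, against 6.38, 4.68 and 3.82 CPM in WT-Control. It was at 8.84, 7.09 and 8.24 CPM in KO-Clonidine, against 8.38, 10.1 and 8.49 CPM in KO-Control. WT-Control was the group apart, and the difference was 0.93 (SE 0.23, adjusted p = 0.38 in edgeR and 0.037 in DESeq2). Per3, a paralogue, was at 11.7, 11.4 and 15.1 CPM in WT-Clonidine, against 7.9, 9.15 and 6.82 CPM in WT-Control, and 11.2 to 14.2 CPM in KO libraries (0.81, SE 0.23). Arntl, the activator on which the Per genes depend, had a difference of -0.63 (SE 0.22). Of 19 clock genes, 11 were positive, 4 higher and 1 lower at an unadjusted p under 0.05, with a median of 0.128, which ran from 0.065 to 0.262 over the omission of each library. The hours at which tumours were collected are not given in the sources used here, and their part was not tested.

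The adrenergic receptors themselves showed no called difference. Of 9 tested genes of that list, 7 were positive, with a median of 0.233 and 0 at an unadjusted p under 0.05. The median was 0.07 without WT-Clonidine 1, 0.136 without WT-Control 2, 0.059 without WT-Control 3, 0.019 without KO-Clonidine 1, 0.147 without KO-Control 1 and 0.01 without KO-Control 2. Adra2b, another alpha2 receptor, was at 0.382, 0.315 and 0.514 CPM in WT-Clonidine, against 0.244, 0.38 and 0.333 CPM in WT-Control. It was at 0.217, 0.412 and 0.361 CPM in KO-Clonidine, against 0.395, 0.462 and 0.235 CPM in KO-Control, so the groups overlapped in both genotypes (0.41, SE 0.49). Nisch, which encodes an imidazoline-binding protein, had a difference of 0.03 (SE 0.09). Of 30 genes of G protein and cyclic AMP signalling, 17 were positive and 0 had an unadjusted p under 0.05, with a median of 0.037. Proliferation genes did not differ detectably either, with medians of -0.016 for S phase (0.069 under total count scaling) and 0.013 for G2 and M phase and 0 members at that p. Mki67, a marker of cycling cells, was at 299, 337 and 294 CPM in WT-Clonidine, against 295, 284 and 273 CPM in WT-Control. It was at 335, 312 and 274 CPM in KO-Clonidine, against 305, 304 and 301 CPM in KO-Control, a difference of 0.11 (SE 0.11).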

How the data were processed

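RNA was measured in 18 libraries of MC38-OVA tumours, 3 in each of 6 groups taken from the sample titles. The values are estimated counts for each gene, deposited as whole numbers, which the authors made with Trim Galore 0.6.5 and kallisto 0.46.0 on GRCm38, per the submitters' processing notes. How transcripts were summed to genes, and the strandedness of the libraries, are not given in the sources used here. Overlapping antisense genes therefore cannot be told apart. kallisto divides reads among near-identical copies, so ribosomal protein, globin, Esp, Gbp and Pira genes are uncertain. Total counts per library were 54.7 to 491.1 in units of 1000000, so precision for most genes was set by variation between libraries (edgeR's common BCV was 0.145).

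Genes passing filterByExpr (16125) were scaled by TMM and modelled by the means of the 6 groups in edgeR 4.0.16 (R 4.3.3), with residual degrees of freedom of 12 and a prior of 4.35. Quasi-likelihood tests were two-sided, with Benjamini-Hochberg adjustment within each contrast, and an adjusted p under 0.05 was a call. The table's values were already whole, so no rounding was needed. Log2 fold changes have a standard error (SE), and CPM use TMM library sizes. List levels are means of log2 CPM with a prior count of 2. Lists (41, with 671 of 679 entries in the table) are described by counts and medians, with no set test. The code was tested on simulated counts with the same spread for every gene. That setting is simpler than these data and does not test the results given here.

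The members and lists were chosen with earlier results of these data known. Named genes are Adra2a, the 12 higher and 12 lower genes of smallest p with a mean log2 CPM of at least 1, genes called by any tool, up to 4 members a list at an unadjusted p under 0.05, and the 5 of smallest p in each genotype. The others given with values are list members, promoter genes and 9 genes named outside the rule, chosen after values were seen. Motif letters were searched in RefSeq promoters of GRCm38.p6.

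The 23 alternatives were DESeq2 1.42.0, voom with quality weights in limma 3.58.1, RLE and total count scaling, no filter, a filter of 1 CPM in 6 libraries, the replicate number as a block, the 4 groups alone, omission of the KO-Guanabenz libraries, a fit that reads these as KO-Control, a covariate for Y-linked transcripts, and omission of each of 12 libraries.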

Additional observations from a re-analysis of the deposited data

How the results depend on the processing

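The difference between genotypes gave 0 called genes in edgeR, 33 in DESeq2, 2 in voom, 3 without a low-count filter and 2 with a Y-linked term, and 0 to 2 when 1 library was left out (1 without WT-Clonidine 1, 2 without KO-Clonidine 2). Its count at an unadjusted p under 0.05 was 1442, with 2287 in voom and 1041 to 1847 over the omissions. The effect in WT hosts gave 0 calls, 353 in DESeq2, 773 in voom and 0 to 55 over the omissions (55 without WT-Control 2), and 2079 at an unadjusted p, with 3795 in voom and 1342 to 2513 over the omissions. The effect in KO hosts gave 3 calls, 29 in DESeq2, 1 with a Y-linked term, 0 with the KO-Guanabenz libraries read as KO-Control and 0 to 3 over the omissions, and 890 at an unadjusted p, with 520 to 1435 over the omissions. KO-Clonidine against WT-Clonidine gave 403, with 1148 in DESeq2, 1266 in voom, 249 under total count scaling, 220 without the KO-Guanabenz libraries, 34 with these read as KO-Control, 213 with a Y-linked term and 1 to 405 over the omissions. KO-Control against WT-Control gave 1, with 17 in DESeq2, 2 with the KO-Guanabenz libraries read as KO-Control, 0 to 2 over the omissions, and 0 under total count scaling, the stricter filter, the 4 groups alone or a Y-linked term. The comparisons of KO with WT and the shares of the same sign were chosen after seeing the data. These shares were 51.2% for genes chosen in WT hosts, with 47.5% under total count scaling, 35.5% with the KO-Guanabenz libraries read as KO-Control, 57.1% with a Y-linked term and 43.8% to 58.2% over the omissions, and 53.5% for genes chosen in KO hosts, with 49.9%, 34.6% and 60.2% in those settings, 57.5% under the stricter filter and 46.1% to 59.6% over the omissions. The cause of these shifts was not tested.

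Replicate numbers did not pair the libraries: deviations of same-numbered libraries correlated at -0.331 to 0.2, and those of other pairs at -0.248 to 0.292. With the replicate block the difference gave 0 calls and 1476 genes at an unadjusted p, the effect in KO hosts 0 calls, KO-Clonidine against WT-Clonidine 333 and KO-Control against WT-Control 0.

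Among genes named by the rule no difference changed sign in any of the 23 alternatives. Apol8 and Sh3gl3 passed in voom, without a filter, with a Y-linked term and without KO-Clonidine 2, and Esp8 without a filter and without WT-Clonidine 1. Of 41 list medians, 8 kept their sign and moved by at most 1.5 times in every alternative: T cell receptor (0.649 to 1.149), T cell signalling (0.449 to 0.728), checkpoint (0.539 to 0.762), conventional dendritic cell (0.369 to 0.774), interferon gamma (0.248 to 0.404), chemokine (0.55 to 0.89), ATF4 (-0.411 to -0.246) and erythroid (-3.374 to -2.02). With 3 libraries a group the spread between libraries, not depth, limits what can be called.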

Other observations

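Some groups of genes that the accounts above leave out had values worth a look, given here without explanation. Alternative macrophage genes had a median difference of 0.408 with 9 of 11 positive and 0 at an unadjusted p under 0.05, and the median was 0.174 without WT-Clonidine 3. Immediate early genes, which respond to growth factor and stress signals within minutes, had a median of -0.175 with 15 of 19 negative, 3 lower and 0 higher. Egr1, a transcription factor of that group, was at 33.1, 35.6 and 41.7 CPM in WT-Clonidine, against 46.8, 58.1 and 50.4 CPM in WT-Control. It was at 65.2, 43.8 and 57.1 CPM in KO-Clonidine, against 52.8, 53.0 and 54.3 CPM in KO-Control. WT-Clonidine was below the other 9 libraries, with a difference of -0.55 (SE 0.19, adjusted p = 0.45 in edgeR).

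Glucocorticoid response genes had a median of 0.017, with 1 higher and 2 lower at an unadjusted p under 0.05. Tsc22d3, induced by glucocorticoids, was at 68.1, 63.8 and 71.1 CPM in WT-Clonidine, against 58.2, 51.0 and 51.6 CPM in WT-Control. It was at 48.3, 64.8 and 58.2 CPM in KO-Clonidine, against 53.9, 70.7 and 61.7 CPM in KO-Control (0.46, SE 0.15). Cholesterol and fatty acid synthesis genes had a median of 0.025 with 0 of 24 at that p. Adipocyte genes had a median of 0.322, which ran from -0.013 to 0.729 over the omission of each library, and their 1 member at that p was Pparg, a regulator of fat cells (0.75, SE 0.24). The 4 Y-linked genes had a median difference of 4.4, since KO-Clonidine had 0 libraries with these transcripts.

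Stx11, a syntaxin of cytotoxic granule release, was among the 5 genes with the smallest p in KO hosts and was lower with clonidine in both genotypes: 14.2, 16.4 and 15.2 CPM in WT-Clonidine, against 17.8, 18.0 and 19.8 CPM in WT-Control, and 15.8, 16.4 and 15.5 CPM in KO-Clonidine, against 22.6, 22.8 and 23.0 CPM in KO-Control. The groups did not overlap in either genotype, the effects were -0.28 (SE 0.09) in WT hosts and -0.52 (SE 0.09) in KO hosts, with edgeR adjusted p of 0.2 and 0.076, and the difference was 0.24 (SE 0.13).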
